A study of Homo sapiens with 6 samples.

Results

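The genes described here are the subunits of the transcription factor NF-kappaB and a group of its best known feedback regulators: RELA, RELB, REL, NFKB1, NFKB2, NFKBIA, NFKBIZ, TNFAIP3, BIRC3 and TRAF1. They were taken by name from the deposited gene table, which held all 10 among its 58302 gene rows. The table comes from RNA sequencing of A549, an established human lung adenocarcinoma cell line. Of its 6 libraries, 3 came from cells transfected with SNHG5, a long non-coding RNA, and 3 from cells transfected with vector, and the labels call them biological replicates. All libraries share the same cell line, no untransfected culture was analysed here, and the labels do not say whether transfection was transient or stable. Below, the libraries are named overexpression 1, 2 and 3 and control 1, 2 and 3.

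NF-kappaB is a family of dimers built from RELA (p65), RELB, REL (c-Rel), and the p50 and p52 proteins cut from the NFKB1 and NFKB2 precursors. In resting cells inhibitors such as IκBα, the product of NFKBIA, hold the dimers in the cytoplasm. Signals from TNF, interleukin-1 or Toll-like receptors activate the IκB kinase complex, the inhibitor is degraded, and the dimers enter the nucleus. Among the genes they switch on are their own inhibitors and several of their own subunits, so that the pathway limits itself. In lung epithelial cells it drives the inflammatory response to cytokines and infection.

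Promoter sequences are shown first, because several members are known targets of the factor they form or restrain. RefSeq promoter windows of 300 bases, 250 before and 50 after an annotated transcript start (GRCh38.p14), were at hand for 9 of the 10 genes, and RELB had none. They were searched on both strands for the kappaB consensus motif, a degenerate sequence of 10 bases. A match lay in at least 1 window of 7 of the 9 genes, against 7.09% of all 27305 genes with a window. Counted by window, 9 of the members' 16 windows held a match, against 5.91% of all 35116 windows. No window of RELA or TRAF1 held these letters. A match is a description of the sequence and not a measured binding site. The stretches below show 1 or more matches from each of the 7 genes, written 5′ to 3′ on the gene's strand, with the matched bases in capitals and up to 9 flanking bases on each side.
NFKBIA, chr14:35404812-35404839, minus strand: gactggcttGGAAATTCCCcgagcctga
NFKB1, chr4:102501301-102501328, plus strand: gacgtcagtGGGAATTTCCagccaggaa
NFKBIZ, chr3:101827758-101827785, plus strand: ttttggtctGGGAATTTCCagtgtgcag
NFKB2, chr10:102394462-102394490, plus strand: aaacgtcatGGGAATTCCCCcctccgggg
REL, chr2:60881518-60881546, plus strand: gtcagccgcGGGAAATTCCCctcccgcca
TNFAIP3, upstream of a neighbouring match, chr6:137867183-137867210, plus strand: cgtgactttGGAAAGTCCCgtggaaatc
TNFAIP3, that neighbouring match, chr6:137867195-137867222, plus strand: aagtcccgtGGAAATCCCCgggcctaca
BIRC3, chr11:102317276-102317303, plus strand: ttgggtcatGGAAATCCCCgagtgggtt

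The NFKB1 and NFKBIZ stretches hold the same 10 matched bases, and so do the second TNFAIP3 stretch and the BIRC3 stretch. In TNFAIP3 the matches lie at bases -67 to -58 and -55 to -46 from the RefSeq transcript start. In NFKBIA the match lies at -81 to -72, in NFKB1 at -49 to -40 and in REL, where matches on both strands overlap, at -47 to -37. The NFKB2 stretch belongs to its second window. Its matched bases lie inside the deposited gene span, and so do those of REL and both matches of TNFAIP3. The matched bases shown for NFKBIA, NFKB1, NFKBIZ and BIRC3 lie outside the deposited spans. NFKB2 had the most, with 4 matched stretches in 2 of its 3 windows.

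Library totals ran from 13378079 to 16999604 counts. Levels are given as CPM, counts scaled to a common library size after TMM normalisation. A total of 3 counts, below which a gene cannot be told from absent, equals 0.175 to 0.218 CPM depending on the library, and such limits cover counting error only. The overexpressed gene was checked first. SNHG5 stood at 153.3, 126.5 and 62.9 CPM in overexpression 1, 2 and 3 and at 61.0, 101.3 and 55.1 CPM in controls 1, 2 and 3, so the groups overlapped (log2 fold change 0.66, SE 0.37, edgeR adjusted p 0.746). Directions below are therefore between libraries as labelled. Of 12 markers of alveolar carcinoma cells all 12 had a mean of at least 1 CPM, with summed levels of 10700 to 16110 CPM in the overexpression libraries and 14750 to 20450 CPM in the controls. Of 12 leukocyte markers 8, PTPRC and CD3E among them, had no count in any library. The summed leukocyte list ran from 30.1 to 49.0 CPM and from 85.6 to 98.6 CPM, nearly all of it CD68 and ITGAM, and its part in the results below was not tested. Libraries differed within groups. Overexpression 3 had the highest share of mitochondrially encoded counts (6.16%), and control 2 the lowest (2.57%) together with the lowest levels of the nuclear RNAs MALAT1 (28.1 CPM) and NEAT1 (23.4 CPM).

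Coordinates given with each gene are those of the deposited table (GRCh38). None of the 10 members passed the edgeR threshold (adjusted p of 0.05 over the 15631 genes tested), a threshold that 0.128% of all genes passed. All 10 members passed the filter on low counts. At an unadjusted p of 0.05 edgeR counted 1 of the 10 (6.49% of all genes), DESeq2 2 (7.43%) and limma-voom 1 (6.74%). Neither DESeq2, which called 1.7% of all genes, nor limma-voom, which called 0.147%, called any member. With the replicate number as a block, where 0.467% of all genes passed, no member passed either. The fitted changes were mixed in direction, 5 above and 5 below 0, and their median log2 fold change was 0.11, beside 0.01 over all genes. NFKBIA was the 1 member whose groups did not overlap, and groups did not overlap for 13.6% of all genes tested.

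**Figure D1:**
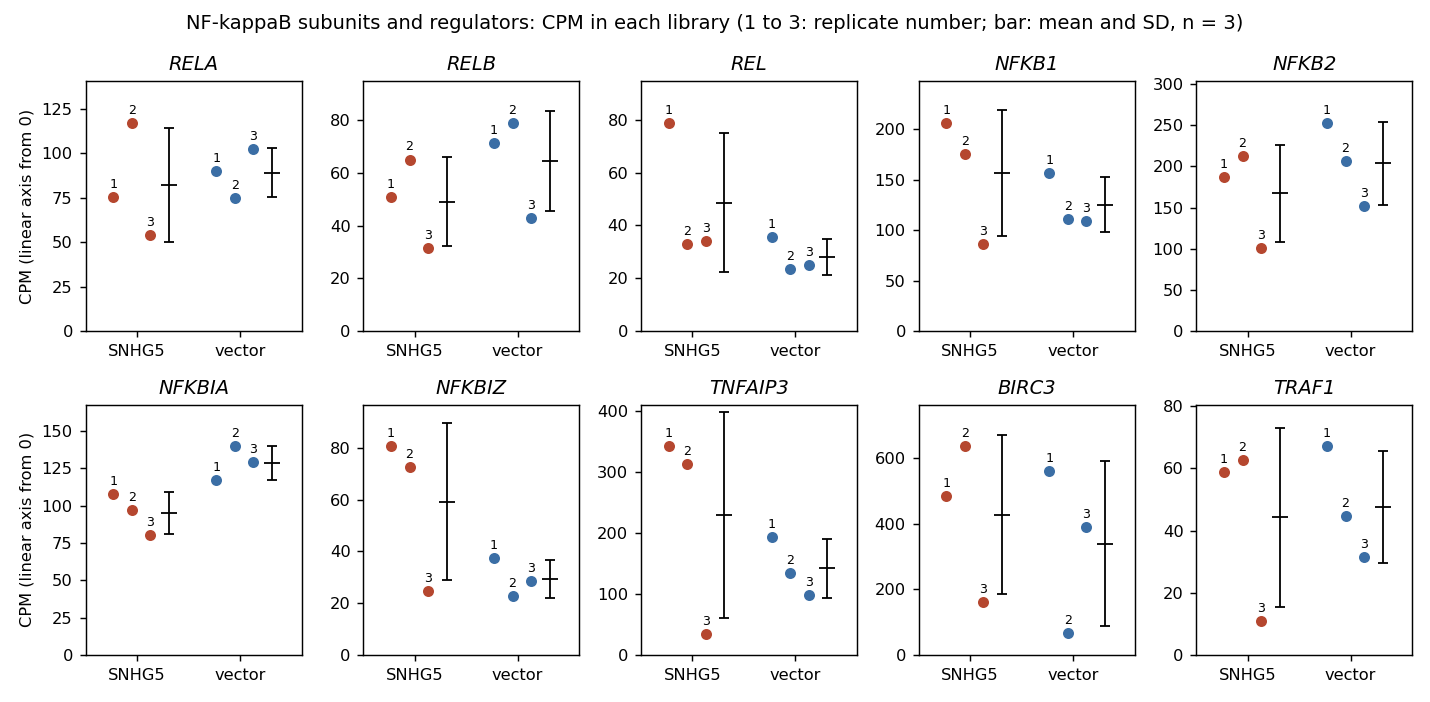
CPM of each of the 10 genes (vertical axis, linear from 0) in the libraries transfected with SNHG5 or vector (horizontal axis). Points are libraries labelled by replicate number, and bars give mean and SD of 3. Overexpression 3 is the lowest library for 7 of the 10 genes, and control 2 for the other 3, REL, NFKBIZ and BIRC3.

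RELA (ENSG00000173039, chr11:65653596-65663094) encodes p65, the subunit with the main transactivation domain of the canonical pathway. It stood at 75.1, 117.1 and 54.0 CPM in overexpression 1, 2 and 3 and at 90.2, 74.8 and 102.4 CPM in controls 1, 2 and 3. The control values lie inside the range of the overexpression values (log2 fold change -0.12, SE 0.30, edgeR adjusted p 0.91). RELB (ENSG00000104856, chr19:45001430-45038198), the partner of p52 in the non-canonical pathway, stood at 50.8, 65.1 and 31.4 CPM against 71.4, 79.1 and 43.1 CPM. Each overexpression library lay below the control of the same number, by -0.49, -0.28 and -0.46 on the log2 scale, while the groups overlapped (log2 fold change -0.40, SE 0.33, edgeR adjusted p 0.755).

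REL (ENSG00000162924, chr2:60881521-60931610) encodes c-Rel, best known from lymphocytes. It stood at 78.8, 32.9 and 34.2 CPM in overexpression 1, 2 and 3 and at 35.8, 23.4 and 25.1 CPM in the controls. Overexpression 1 stood apart, while overexpression 2 and 3 lay just below control 1. The log2 fold change was 0.79 (SE 0.38, edgeR adjusted p 0.746), and 0.25 without overexpression 1. REL lay above its same-numbered control in 3 of 3 pairs, by 1.14, 0.49 and 0.44.

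The counts of REL also depend on a neighbour. AC010733.2, a non-coding gene, overlaps REL on the same strand over 5702 bases, and the sources do not say how shared reads were assigned. Its counts were 60, 476 and 102 in the overexpression libraries, in replicate order, and 400, 108 and 310 in the controls. Those of REL were 1299, 452 and 587 in the overexpression libraries and 537, 357 and 408 in the controls. REL thus took 95.6% of the joint counts in overexpression 1 but 48.7% in overexpression 2. Summed, both genes stood at 82.5, 67.5 and 40.1 CPM against 62.4, 30.5 and 44.2 CPM. The order of the libraries changed with the sum, and the log2 fold change was 0.47 (SE 0.34, edgeR adjusted p 0.749). The sum was added after the data were seen.

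NFKB1 (ENSG00000109320, chr4:102501329-102617302), the source of p50, stood at 206.4, 175.8 and 86.4 CPM in overexpression 1, 2 and 3 and at 156.6, 110.6 and 109.0 CPM in the controls. Overexpression 1 and 2 lay above all controls and overexpression 3 below all of them (log2 fold change 0.32, SE 0.33, edgeR adjusted p 0.797). NFKB2 (ENSG00000077150, chr10:102394110-102402529), the source of p52, stood at 187.6, 212.5 and 101.4 CPM against 253.0, 206.4 and 151.9 CPM, with overexpression 3 again lowest (log2 fold change -0.29, SE 0.32, edgeR adjusted p 0.803).

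The ratio of the precursors did not overlap between the labelled groups, while the level of each gene did. Groups did not overlap for 13.6% of all single genes tested, and no such share was computed for ratios. Dividing NFKB1 FPKM by NFKB2 FPKM gave 0.675, 0.508 and 0.523 for the overexpression libraries, in replicate order, and 0.380, 0.329 and 0.441 for the controls. FPKM is the deposited count per length and library size. The means were 0.569 ± 0.0926 and 0.383 ± 0.0559 (SD, n = 3 each). The log2 difference was 0.57, and it lay between 0.44 and 0.67 without any 1 library. REL over RELA, at 1.483, 0.397 and 0.894 against 0.560, 0.4425 and 0.347, did overlap between the groups. So did NFKBIZ over NFKBIA, at 0.600, 0.601 and 0.247 against 0.256, 0.131 and 0.177. The ratio of NFKB1 to NFKB2 was picked from these ratios after the values were seen, so it is given with no test.

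**Figure D2:**
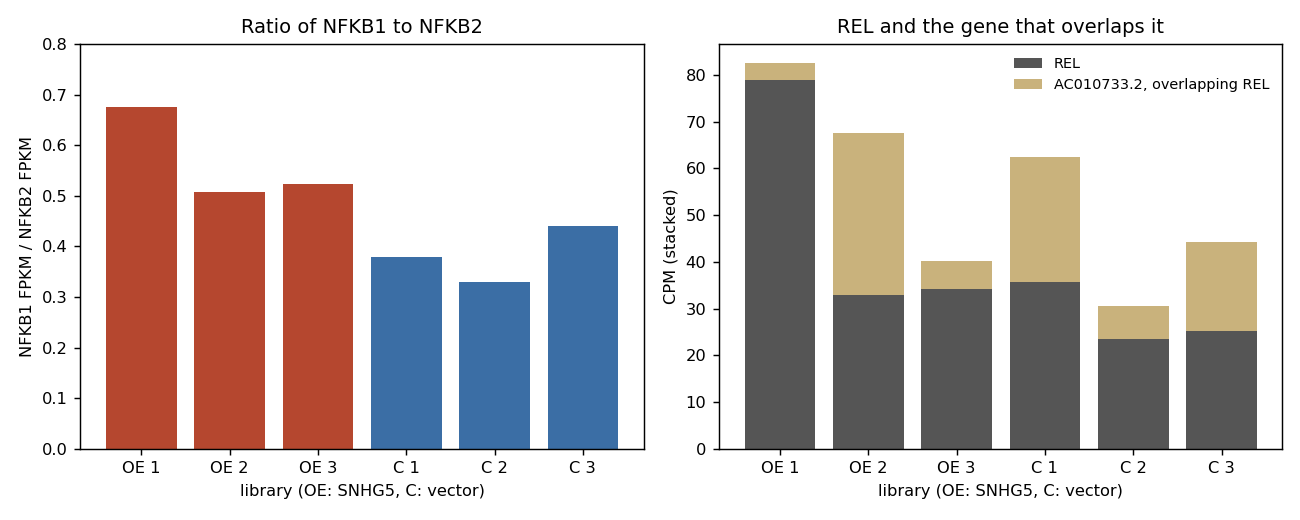
Left, the ratio of NFKB1 to NFKB2 FPKM in each library (OE, SNHG5, and C, vector), where the lowest overexpression value is 0.508 and the highest control value 0.441. Right, CPM of REL stacked with AC010733.2, which overlaps it, with REL taking 95.6% of the joint counts in OE 1 and 48.7% in OE 2.

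NFKBIA (ENSG00000100906, chr14:35401511-35404749) encodes IκBα, the inhibitor whose breakdown releases the dimers and whose resynthesis ends the response. It stood at 107.9, 96.9 and 80.0 CPM in overexpression 1, 2 and 3 and at 117.1, 139.6 and 128.9 CPM in the controls, so that all overexpression libraries lay below all controls. The means were 95.0 ± 14.0 and 128.5 ± 11.3 CPM (SD, n = 3 each), 1.35-fold apart. The log2 fold change was -0.44 (SE 0.19), with an edgeR adjusted p of 0.746. NFKBIA was also the steadiest member, with 1.74-fold between its lowest and highest library.

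NFKBIZ (ENSG00000144802, chr3:101827991-101861022) encodes IκBζ, a nuclear cofactor that is itself induced by NF-kappaB and is needed for a second wave of target genes. It stood at 80.5, 72.5 and 24.6 CPM in overexpression 1, 2 and 3 and at 37.3, 22.7 and 28.4 CPM in controls 1, 2 and 3. Overexpression 1 and 2 lay above every control, but overexpression 3 lay among them. The means were 59.2 ± 30.2 and 29.5 ± 7.37 CPM (SD, n = 3 each). The log2 fold change of 1.01 (SE 0.43) was the largest of the 10 and did not pass (edgeR adjusted p 0.746). Without overexpression 3 it was 1.37, with an edgeR adjusted p of 0.0624. Without overexpression 1 it was 0.72 and without overexpression 2 it was 0.83, with edgeR adjusted p of 1 and 0.964.

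TNFAIP3 (ENSG00000118503, chr6:137867188-137883312) encodes A20, a ubiquitin-editing enzyme that shuts down signalling upstream of the IκB kinases. It stood at 342.2, 312.6 and 34.9 CPM in overexpression 1, 2 and 3 and at 194.3, 134.1 and 97.9 CPM in the controls. The overexpression group thus held both the highest and the lowest libraries, with 9.80-fold between them. Its means of 229.9 ± 169.5 and 142.1 ± 48.7 CPM (SD, n = 3 each) differed by less than the spread of the first group. The log2 fold change of 0.69 (SE 0.70, edgeR adjusted p 0.792) was 1.2 without overexpression 3, 0.29 without overexpression 1 and 0.40 without overexpression 2. It was 0.23 with the replicate block and 0.18 with limma-voom. By pair the differences were 0.82, 1.22 and -1.48.

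TRAF1 (ENSG00000056558, chr9:120902393-120929173), an adaptor at TNF receptors and a classic NF-kappaB target, followed TNFAIP3 in overexpression 3. It stood at 58.9, 62.7 and 11 CPM in overexpression 1, 2 and 3 and at 67.0, 44.5 and 31.4 CPM in the controls. The values of overexpression 1 and 2 lay within the control range (log2 fold change -0.11, SE 0.58, edgeR adjusted p 0.961). The sign turned without overexpression 3 (0.35) and without control 1 (0.22).

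BIRC3 (ENSG00000023445, chr11:102317450-102339403) encodes cIAP2, a ubiquitin ligase of TNF receptor complexes. Its group means of 427.7 and 339.2 CPM were the highest of the members, on a scale that takes no account of length. It was not the highest in control 2. BIRC3 stood at 485.1, 635.4 and 162.6 CPM in overexpression 1, 2 and 3 and at 560.0, 66.7 and 390.9 CPM in the controls. As for REL and NFKBIZ, the lowest library was control 2, here 7.0-fold below the geometric mean of controls 1 and 3. The log2 fold change of 0.33 (SE 0.73, edgeR adjusted p 0.897) turned to -0.15 without control 2 and to -0.07 without overexpression 2. BIRC2, which encodes cIAP1, is the neighbour and close relative of BIRC3. It stood at 268.4, 101.3 and 41.6 CPM against 227.8, 46.4 and 67.2 CPM, lowest in overexpression 3 and next in control 2 (log2 fold change 0.27, SE 0.76, edgeR adjusted p 0.922). BIRC2 also changed sign, to -0.67, -0.11 and -0.01 without overexpression 1, control 2 and control 3.

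**Figure D3:**
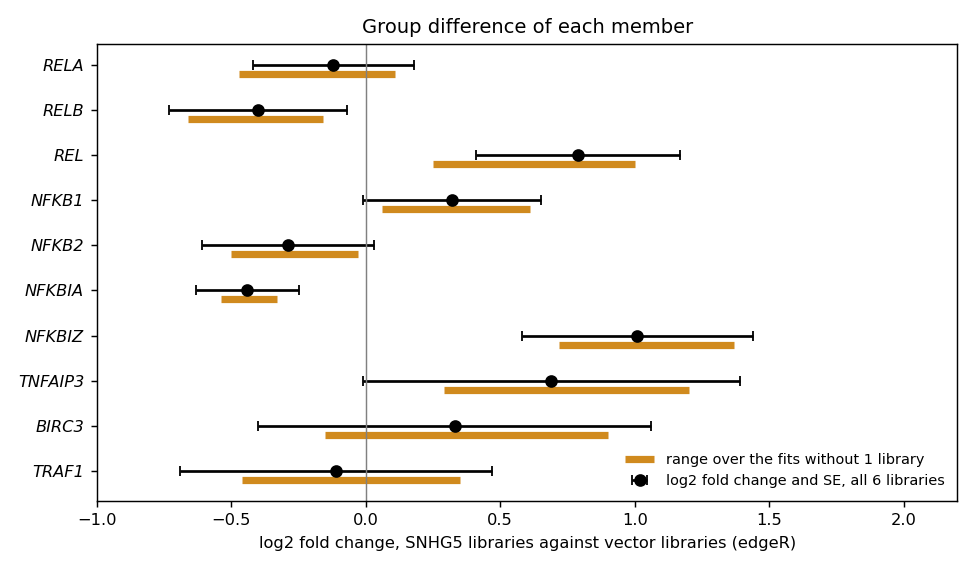
Log2 fold change of each gene between the SNHG5 and vector libraries (horizontal axis) from the edgeR fit of all 6 libraries, with its SE (points and black bars), and the range of values when 1 library is left out (orange bars). The orange ranges of RELA, BIRC3 and TRAF1 cross 0, and those of the other 7 genes do not.

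Overexpression 3 stood apart from the other libraries of its group. It lay below each member's mean over all libraries, and the share of all genes for which it did so was not computed. It was the lowest library for 7 of them, against 16.5% of all genes tested. Control 2 was lowest for the other 3, against 26.7% of all genes tested. Overexpression 3 was lower than the mean log2 level of overexpression 1 and 2 by 9.33-fold for TNFAIP3 and 5.47-fold for TRAF1. It was lower by 3.41-fold for BIRC3 and 3.09-fold for NFKBIZ. The subunits were lower by 1.49-fold (REL) to 2.2-fold (NFKB1), and NFKBIA by 1.28-fold. The median over the members was -1.06 on the log2 scale, and over all genes tested 0.02. Normalisation centres each library, so the value over all genes is near 0 by construction. Across the genes counted, overexpression 3 was also far from its group. Chi-square per degree of freedom was 94.2 and 85.9 against overexpression 1 and 2, and 26.2 between overexpression 1 and 2. The contrast of overexpression 3 with overexpression 1 and 2 was picked after the values were seen. It is 1 library against 2, so it has no test. Overexpression 3 also had the lowest SNHG5 level of its group and the highest mitochondrial share of all libraries, as given above, and their part in the low values was not tested.

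The spread over the 6 libraries was wider than usual for most members. The median range between lowest and highest library was 0.85 on the log2 scale over 9824 genes with a mean of at least 10 CPM, and 9 of the 10 members exceeded it. TNFAIP3 and BIRC3, at 3.29 and 3.25, each had a wider range than 99.1% of those genes, and TRAF1, at 2.59, than 97.7%. NFKBIZ (1.82) and REL (1.75) exceeded 91.6% and 90.5%. RELA, RELB, NFKB1 and NFKB2 lay between 1.11 and 1.33, and NFKBIA at 0.80.

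**Figure D4:**
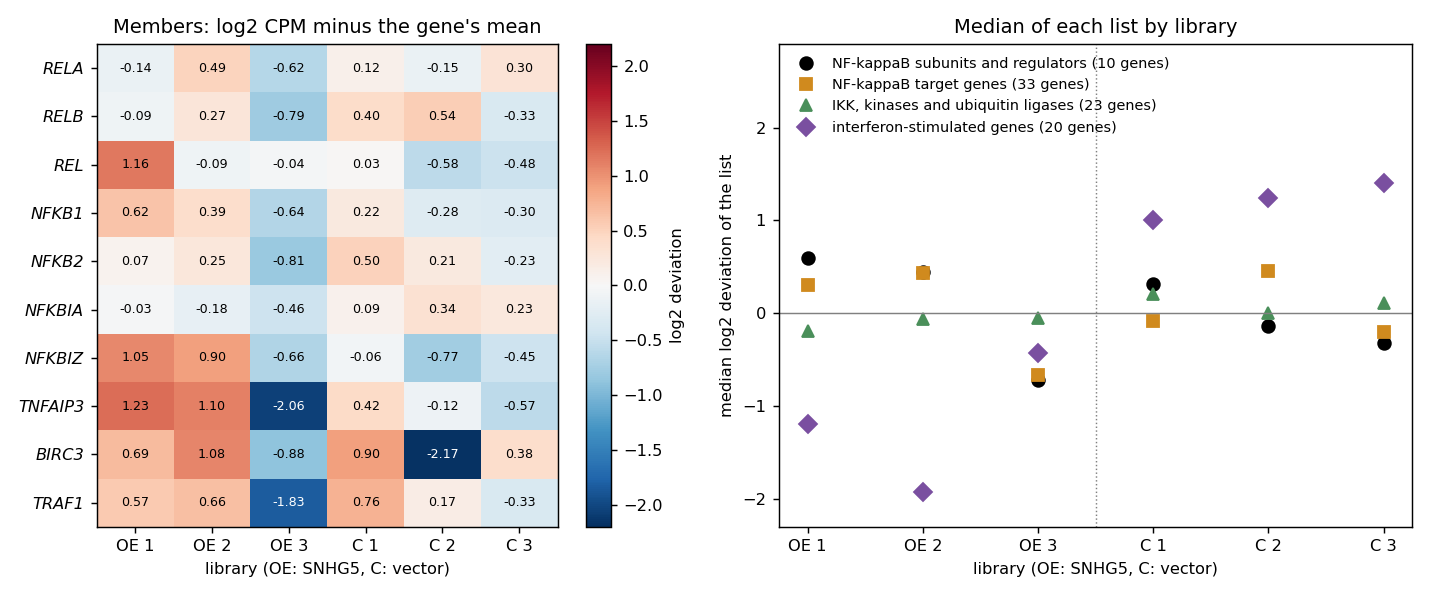
Left, log2 CPM of each gene minus its mean over the 6 libraries (colour and printed value; OE, SNHG5, and C, vector). Right, the median of these deviations for 4 gene lists in each library. The members and the NF-kappaB target genes are both lowest in OE 3, at -0.72 and -0.66, while the interferon-stimulated genes are lowest in OE 2, at -1.92, and above 0 in each control.

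A list of known NF-kappaB targets that are not members was also lowest in overexpression 3. The list held 34 genes, of which 33 could be tested. Overexpression 3 was the lowest library for 23 of the 33, against 16.5% of all genes tested. Relative to overexpression 1 and 2 the median of the list was -1.12 on the log2 scale. This contrast has no test, and the list was chosen with earlier results of these data known. Between the labelled groups the targets were split, 17 with a fitted level above 0 and 16 below, and their median log2 fold change of 0.01 equalled that of all genes. No target passed the edgeR threshold, and 4 of the 33 had an unadjusted p below 0.05, against 6.49% of all genes. These 4 are TNFAIP8, an inhibitor of apoptosis, CFB, complement factor B, SAA1, an acute phase protein, and VCAM1, an adhesion molecule. TNFAIP8 stood at 15.4, 15.1 and 18.2 CPM in overexpression 1, 2 and 3 against 29.5, 30.3 and 38.1 CPM in the controls (log2 fold change -1.01, SE 0.21, edgeR adjusted p 0.152). CFB stood at 12.6, 15.0 and 14.5 CPM against 22.0, 53.5 and 44.5 CPM (-1.51, SE 0.33, edgeR adjusted p 0.179). Overexpression 3 was not the low library in either gene. DESeq2, which called 1.7% of all genes, called TNFAIP8 and CFB (DESeq2 adjusted p 0.00372 and 0.00282). SAA1 and VCAM1, both at most 5.97 CPM, were at -1.52 and -1.32.

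Interferon-stimulated genes, of which 20 were listed, served as a comparison from another pathway. All 20 had a lower fitted level in the overexpression libraries, with a median log2 fold change of -2.28 against 0.11 for the members. The groups did not overlap for 13.6% of all genes tested and for all 20 of these. Overexpression 3 was the lowest library for 0 of them, against 16.5% of all genes tested, and it lay above overexpression 1 and 2 by a median of 1.14. RSAD2, which encodes viperin, had the smallest p (log2 fold change -2.91, SE 0.22, edgeR adjusted p 0.0123), and 3 of the 20 fell past the threshold, RSAD2, IFIT2 and OASL. RSAD2 lost its call without overexpression 2 (edgeR adjusted p 0.106), control 2 (0.0524) or control 3 (0.0705). The low library of the members was thus not the low library of this list. The difference between both lists was not tested.

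Upstream of the members, the list of IκB kinases, adaptors and ubiquitin ligases held 23 genes, all tested. None passed the edgeR threshold, 7 of the 23 had an unadjusted p below 0.05, against 6.49% of all genes, and the median log2 fold change was -0.37. Their groups did not overlap for 11 of the 23, against 13.6% of all genes tested. Of these 11, 9 were lower in the overexpression libraries and 2 higher. RBCK1, a part of the linear ubiquitin ligase complex, stood at 87.3, 94.5 and 106.7 CPM against 150.9, 222.7 and 193.2 CPM (log2 fold change -0.97, SE 0.21, edgeR adjusted p 0.161). MYD88, the adaptor of Toll-like and interleukin-1 receptors, was at -1.12 (SE 0.31, edgeR adjusted p 0.385). TRADD, the adaptor of TNF receptor 1, was at -1.40 (SE 0.41). MAP3K14, which encodes the NIK kinase that starts the non-canonical pathway, stood at 68.1, 53.4 and 120.7 CPM against 166.7, 130.6 and 257.9 CPM (log2 fold change -1.20, SE 0.37, edgeR adjusted p 0.518). In each of these 4 genes all overexpression libraries lay below all controls. DESeq2, which called 1.7% of all genes, called only RBCK1 among them (DESeq2 adjusted p 0.00563).

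Of 14 other IκB proteins and inhibitors 13 were tested. None passed in edgeR, and 0 had an unadjusted p below 0.05, against 6.49% of all genes. The median log2 fold change was -0.02. BCL3, a nuclear IκB protein, was at -0.63 (SE 0.37), TAX1BP1, a cofactor of A20, at 0.57 (SE 0.40), ITCH, a ubiquitin ligase of the A20 complex, at 0.39 (SE 0.30) and NFKBIB, which encodes IκBβ, at -0.36 (SE 0.30). Their edgeR adjusted p ranged from 0.746 to 0.757.

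Of 13 receptor genes 12 were tested, with a median log2 fold change of -0.22. None passed in edgeR, and 2 had an unadjusted p below 0.05, against 6.49% of all genes. TNFRSF1B, the second TNF receptor, stood at 0.364, 0.510 and 0.408 CPM in overexpression 1, 2 and 3 and at 2.07, 4.33 and 2.53 CPM in the controls (log2 fold change -2.78, SE 0.44, edgeR adjusted p 0.0779). TLR3, a sensor of double-stranded RNA, stood at 4.07, 2.26 and 8.96 CPM against 28.3, 40.1 and 51.5 CPM (-2.96, SE 0.50, edgeR adjusted p 0.0932 and 0.0367 with the replicate block). DESeq2, which called 1.7% of all genes, called TNFRSF1B and TLR3, and so did the edgeR fit with no filter. CD40 and TNFRSF11A, the receptor RANK, were at -0.92 and 0.45.

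Of 13 ligand genes 10 were tested, and their median log2 fold change was -0.08, none being past the edgeR threshold. TNFSF10, which encodes TRAIL, stood at 0.910, 1.31 and 5.94 CPM in overexpression 1, 2 and 3 against 24.3, 77.1 and 67.1 CPM in the controls (log2 fold change -4.35, SE 0.77, edgeR adjusted p 0.108 and 0.0289 with the replicate block). TNFSF13B, which encodes BAFF, was at -2.90 (SE 0.82, edgeR adjusted p 0.409 and 0.0362 with the replicate block). These 2 of the 10 had an unadjusted p below 0.05, against 6.49% of all genes. DESeq2, which called 1.7% of all genes, called both. Without control 3, which held 232 of its counts beside 34 and 61 in controls 1 and 2, TNFSF13B was at -1.78 (edgeR adjusted p 0.854). The interleukin-1 genes had fitted values of the opposite sign. IL1A stood at 20.4, 22.9 and 0.466 CPM against 6.2, 4.0 and 2.4 CPM, and IL1B at 4.55, 4.29 and 0.175 CPM against 1.73, 0.984 and 0.801 CPM, overexpression 3 being lowest for both. Their log2 fold changes were 1.79 (SE 1.02) and 1.35 (SE 0.90), with edgeR adjusted p of 0.746 and 0.749.

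Levels can be compared between members only per length. Per kilobase of the union of annotated exons (GENCODE 29), the control means were highest for NFKBIA at 54.1 ± 4.74 CPM per kilobase, then NFKB2 at 45.4 ± 11.3 and BIRC3 at 45.1 ± 33.3 (SD, n = 3). TNFAIP3 followed at 28.1 ± 9.63, RELB at 21.2 ± 6.24, NFKB1 at 20.01 ± 4.32 and RELA at 16.3 ± 2.53 CPM per kilobase. The lowest were TRAF1 at 7.38 ± 2.79, NFKBIZ at 4.99 ± 1.25 and REL at 2.13 ± 0.509 CPM per kilobase. Neighbours in this order differed by less than the larger of their SDs, except for the steps from RELA to TRAF1 and from NFKBIZ to REL. In the overexpression libraries BIRC3 and TNFAIP3 led at 56.8 ± 32.1 and 45.4 ± 33.5 CPM per kilobase. By the mean deposited FPKM over all 6 libraries NFKB2 was highest and RELA ninth of 10. In the overexpression libraries alone BIRC3 was highest, at 30.2 FPKM against 26.7 for NFKB2. RELA has 27 annotated transcripts, and the length behind its FPKM was 3.28 times its exon union.

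The pattern of NFKBIZ, the member with the smallest p, was compared with that of every other gene with a mean log2 CPM of at least 3, by the root-mean-square difference of log2 CPM centred on each gene's mean over the 6 libraries. Among the closest were CSGALNACT2 (0.125), RGS17 (0.147) and ZNF185 (0.155). CSGALNACT2, an enzyme of chondroitin sulfate synthesis, stood at 148.6, 136.2 and 42.5 CPM in overexpression 1, 2 and 3 and at 79.3, 47.5 and 48.0 CPM in the controls. These 3 genes had their highest values in overexpression 1 and 2, as NFKBIZ did, which follows from how they were picked.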

How the data were processed

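RNA of A549 cells was sequenced as paired-end TruSeq libraries, and whether they keep the strand was not tested. HISAT2, FastQC and the build GRCh38 are named in the submitters' processing notes; the program that counted reads is not given in the sources used here. Whole-number counts and FPKM per gene and library are the authors' deposited values. The count test was edgeR 4.0.16 under R 4.3.3 (TMM, filterByExpr, robust quasi-likelihood, two-sided, Benjamini-Hochberg over 15631 genes), after the step was tested on simulated data. The SE is the log2 fold change divided by the square root of F. FPKM served only for levels and for ratios between members, since the length behind it was up to 3.28 times a member's exon union.

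The members and lists were chosen with earlier results of these data known. Named were all members and up to 4 genes per list by p, plus BIRC2, SNHG5, the interferon gene with the smallest p and the 5 genes closest to NFKBIZ, of which 2 are not reported here. CXCL8 was chosen after its values were seen. All 10 members lay at their GENCODE 29 position. The deviations of same-numbered libraries had r of 0.35, 0.16 and 0.29 for replicates 1, 2 and 3. Those of libraries with unlike numbers had r from -0.34 to 0.12. The numbers were taken as pairs only for the differences by pair and the replicate block, and the other fits used no block. Chi-square per degree of freedom between replicates was 26.2 to 94.5, and each library counted as 1 replicate. Alternatives were the replicate block, each library left out, RLE size factors, no filter, a stricter filter, DESeq2 1.42.0, limma-voom (limma 3.58.1) and exon union lengths.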

Additional observations from a re-analysis of the deposited data

How the results depend on the processing

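No member was called in any alternative. Of 121 refits of the 10 members, 116 kept the sign and 5 turned it, all of them without 1 library: over those fits the log2 fold change ran from -0.47 to 0.11 for RELA, from -0.46 to 0.35 for TRAF1 and from -0.15 to 0.90 for BIRC3. BIRC2 ran from -0.67 to 1.27. Among the 5 other pathway lists 0 genes were called in the main fit, which called 0.128% of all genes. DESeq2 called 7, against 1.7% of all genes, and the replicate block 3, against 0.467%. The unfiltered fit (no filter) called 2, and of all its 28667 genes 6 higher and 72 lower. Without 1 library 0 to 2 were called. Those called without 1 library were TLR3 and TNFSF10, both without overexpression 3, at -3.65 and -5.66. Of all 15964 genes tested without overexpression 3, 20 were called higher and 144 lower. RSAD2 lost its call without overexpression 2, control 2 or control 3. With the replicate block (TLR3, TNFSF10 and TNFSF13B gained) no other named gene changed its call. SNHG5 stayed short of the threshold throughout, between 0.39 and 0.97 without 1 library. With exon union lengths 5 of the 10 members kept their rank on the deposited FPKM scale. The causes of these shifts were not tested. With 3 libraries per group the SEs of the members ran from 0.19 to 0.73 on the log2 scale, which limits what these libraries can show.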

Other observations

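CXCL8, which encodes interleukin-8 and was chosen after its values were seen, is an abundant NF-kappaB target in these cells. It stood at 1088, 1092 and 105.4 CPM in overexpression 1, 2 and 3 and at 321.9, 561.9 and 207.2 CPM in controls 1, 2 and 3. As with TNFAIP3, overexpression 1 and 2 lay above every control and overexpression 3 below every control. The log2 fold change was 1.07 (SE 0.76, edgeR adjusted p 0.749), and it lay between 0.70 and 1.58 without 1 library. CYLD, a deubiquitinase that, like A20, restrains the pathway, was also chosen after its values were seen. It stood at 124.3, 105.9 and 34.0 CPM against 86.5, 58.7 and 46.0 CPM, again with overexpression 1 and 2 highest and overexpression 3 lowest.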
